A study of Mus musculus with 6 samples.

Results

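The thin filament is the actin-based cable of the heart's contractile unit, and 10 of its genes were followed in mouse ventricular tissue. They are the sarcomeric actins Acta1 and Actc1, the troponin genes Tnni1, Tnni3, Tnnt1, Tnnt2 and Tnnc1, the tropomyosins Tpm1 and Tpm2, and the leiomodin Lmod2. A probe set, a group of short oligonucleotides summarised as 1 signal, was counted as a member when the platform annotation gave it a single gene symbol and that symbol was one of these. All 10 genes were found, with 18 probe sets of the 45037 that are not controls. Of these genes, 7 had 1 probe set and 3 had several (Tnnt2, Tpm1 and Tpm2).

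The study compared 3 arrays of wild-type mice with 3 arrays of caAkt mice, which carry a transgene that expresses an activated form of the kinase Akt constitutively in the heart. All mice were 8 weeks old, and each array measured total RNA of ventricular tissue. The labels give neither the promoter of the transgene nor strain or sex, and whether the arrays come from different hearts is not stated. The spread behind each p-value is that of these arrays alone and could be technical.

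In the thin filament, actin monomers form the backbone, tropomyosin lies along it, and the troponin complex sits on tropomyosin. Troponin C binds calcium, troponin I inhibits contraction until calcium is bound, and troponin T holds the complex on tropomyosin. Several of these proteins have a pair of isoforms. Adult ventricle mainly uses Actc1, Tnni3, Tnnt2 and Tpm1, whereas Acta1, Tnni1, Tnnt1 and Tpm2 are forms of skeletal muscle, of which Acta1 and Tnni1 are also prominent in fetal heart. A rise of Acta1 is widely used as a marker of cardiac hypertrophy. Leiomodins lengthen actin filaments at the pointed end, the end that faces the middle of the sarcomere.

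The values are RMA signals on a log2 scale, and every log2 fold change gives caAkt relative to wild-type. The arrays' medians were 6.77 to 6.80 and their highest values 15.32 to 15.45. Across all probe sets the correlation was 0.995 to 0.997 between arrays of 1 genotype and 0.983 to 0.985 between genotypes. For the actin control, which shows RNA quality, the 3′ probes exceeded the 5′ probes by 0.64 ± 0.06 in wild-type arrays and by 0.60 ± 0.08 in caAkt arrays (log2, SD, n = 3; two-sided exact permutation p = 0.5). For the Gapdh control the same difference was -0.048 ± 0.007 and -0.030 ± 0.020 (exact permutation p = 0.3). With 3 against 3 arrays this test cannot give a p below 0.1, so it cannot exclude a difference in RNA quality. Of 4 Akt1 probe sets, 1 was higher in caAkt by 5.19 ± 0.11 (log2, SE; adjusted p = 1.55e-07), on every array labelled caAkt. Another was lower (-0.29 ± 0.08, adjusted p = 0.0281) and 2 were not called; whether these read the transgene's RNA was not analysed here. In limma's test over all 45037 probe sets, 20.0% were called at a Benjamini-Hochberg adjusted p under 0.05. These were 11.3% higher and 8.76% lower in caAkt. In each direction, the 3 arrays of 1 genotype lay apart from the other 3 for 16.9% (above) and 18.6% (below).

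Like most probe sets on the arrays, most of the thin filament ones did not pass the test. Of the 18 member probe sets, 3 were called lower (Tnnt1, Tnni3 and 1 of the 4 of Tpm1), 0 were called higher and 15 were not called. Over all 45037 probe sets, 20.0% were called in either direction. The caAkt arrays lay above all wild-type arrays for 2 of the 18 (Actc1 and 1 of Tpm1) and below them for the 3 that were called. With 1 probe set per gene, the one with the highest mean, 2 of 10 genes were called lower (Tnnt1 and Tnni3) and 0 higher, against 28.5% of 18193 genes called in that fit (16.1% higher and 12.4% lower). The median log2 fold change of the 10 genes was 0.05, beside -0.04 over all genes. The 5 adult heart genes (Actc1, Tnni3, Tnnt2, Tnnc1, Tpm1) had a median of 0.06. That value became -0.16 when a gene's probe sets were averaged. The 4 skeletal or fetal isoforms had a median of -0.15.

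**Figure D1:**
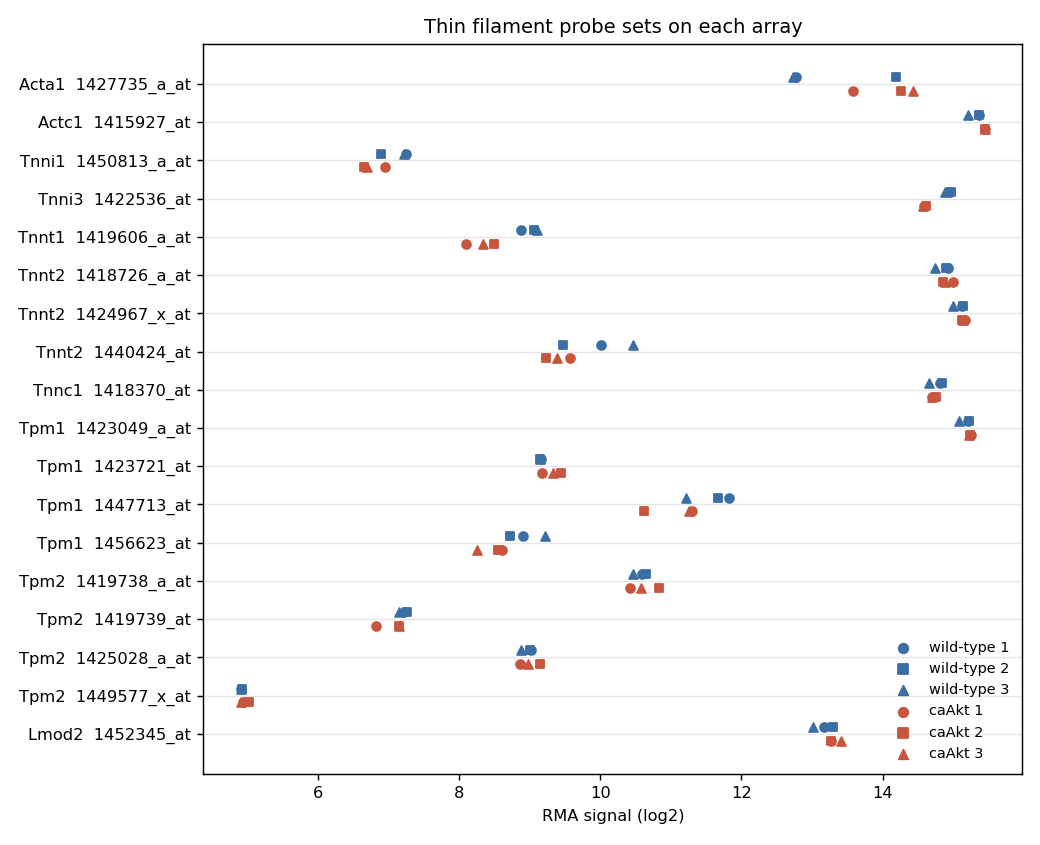
RMA signal (log2, x axis) of the 18 thin filament probe sets (rows) on each of 6 arrays, with wild-type arrays in blue above and caAkt arrays in red below, and a marker shape for each replicate number. The brightest probe sets of the adult heart isoforms sit at the right edge, near the highest values of 15.32 to 15.45, and red and blue points are fully apart in the rows of Actc1, Tnni3, Tnnt1 and 2 of Tpm1.

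The brightest members sat near the top of the scale. For 8 of the 18 probe sets the mean signal was above that of 99% of all probe sets, and that of Actc1 was the highest of all. Of the 430 probe sets at least as bright as that of Lmod2, 34.7% were called. Whether the scale understates changes of these members was not tested.

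The actins come first. In the windows from 250 bases before to 50 bases after the transcript start (RefSeq, GRCm38.p6), all 10 genes had a sequence, in 12 entries. The CArG box is the binding motif of serum response factor, a regulator of muscle actin genes. It was found in 2 of the 10 genes, Acta1 and Actc1, and in 1.63% of all 32851 promoter windows of that length. The MCAT motif CATTCC, searched on both strands, was found in 4 of 10 (Acta1, Tnnt2, Tnnc1 and Tpm1) and in 14.7% of all windows. The MEF2 box was found in 0 of 10 and in 3.19% of all. The windows of both actins are shown because they carry the CArG box, with CArG and MCAT matches in capitals; both genes lie on the minus strand, and the sequences read 5′ to 3′ along the gene. The window of Acta1 is chr8:123894726-123895025 and that of Actc1 is chr2:114052826-114053125. The CArG match begins 73 bases before the annotated start in Acta1 and 47 bases before it in Actc1, and the MCAT match of Acta1 begins 46 bases before it. The letters TATAAA, searched on the gene's strand, were found in 3 of 10 genes (Acta1, Actc1 and Tnnt1) and in 8.32% of all windows. They begin 7 bases before the annotated start in Acta1, 30 before it in Tnnt1, and at base 34 after it in Actc1. All distances hold for the annotated start only, and other starts were not analysed here. A match of letters is a description and does not show that a factor binds there.

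Acta1: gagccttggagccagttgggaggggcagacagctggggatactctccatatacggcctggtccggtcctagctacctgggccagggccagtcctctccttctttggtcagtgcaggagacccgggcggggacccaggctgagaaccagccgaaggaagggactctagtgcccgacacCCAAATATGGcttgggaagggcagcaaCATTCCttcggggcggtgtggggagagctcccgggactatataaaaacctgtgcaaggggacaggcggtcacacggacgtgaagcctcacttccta

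Actc1: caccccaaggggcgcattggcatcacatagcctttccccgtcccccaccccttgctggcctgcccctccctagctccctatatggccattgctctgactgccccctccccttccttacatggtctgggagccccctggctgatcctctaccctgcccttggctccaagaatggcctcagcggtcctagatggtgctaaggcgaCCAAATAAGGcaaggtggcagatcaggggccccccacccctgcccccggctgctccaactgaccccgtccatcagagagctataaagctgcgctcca

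Acta1, the α-actin of skeletal muscle, was the most variable member. Its signal was 12.77, 14.18 and 12.73 on the wild-type arrays 1, 2 and 3, and 13.58, 14.26 and 14.43 on the caAkt arrays. All caAkt arrays were above wild-type arrays 1 and 3, but wild-type array 2 lay among the caAkt arrays, so the groups overlapped. The log2 fold change was 0.86 ± 0.37 (SE, limma; 95% interval 0.02 to 1.71, unadjusted), or 1.82-fold, and was not called (adjusted p = 0.148). Leaving out wild-type replicate 2 gave 1.34, which was called (adjusted p = 0.00744), while without any other single array it was 0.62 to 1.12 and not called (adjusted p up to 0.355). With array weights it was 0.53 (adjusted p = 0.363). The SD over the 3 wild-type arrays, 0.83, was larger than that of 99.9% of all probe sets, and that over the caAkt arrays, 0.45, larger than that of 99.7%.

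Actc1, the α-actin of heart muscle, had signals of 15.37, 15.37 and 15.21 in wild-type and 15.45, 15.45 and 15.45 in caAkt. Every caAkt array was above every wild-type array. The difference was small, with a log2 fold change of 0.13 ± 0.07 (95% interval -0.03 to 0.30), and was not called (adjusted p = 0.251). Without wild-type replicate 3, the array at 15.21, it was 0.080. On each caAkt array the Actc1 signal was the highest of all probe sets. The coding sequences of the sarcomeric actins are alike, and whether their probe sets also bind each other's RNA was not tested.

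**Figure D2:**
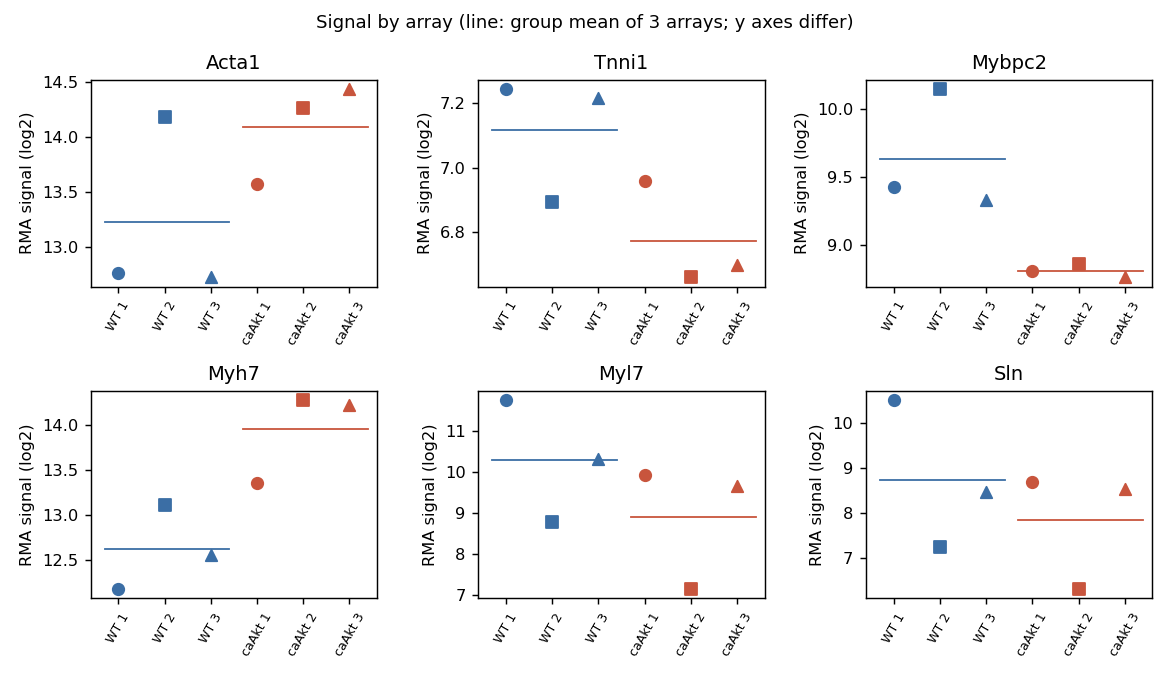
RMA signal (log2, y axes that differ between panels) of Acta1, Tnni1, the fast skeletal myosin-binding protein gene Mybpc2, the slow myosin gene Myh7 and the atrial genes Myl7 and Sln on each array, with wild-type in blue, caAkt in red and a line for the mean of each group of 3. Wild-type array 2 is the highest wild-type array for Acta1, Mybpc2 and Myh7 and the lowest for Tnni1, Myl7 and Sln.

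Some other muscle genes, picked after their values were seen, were also highest among the wild-type arrays on array 2. Mybpc2, a myosin-binding protein of fast skeletal muscle, was 9.43, 10.15 and 9.33 in wild-type and 8.81, 8.86 and 8.76 in caAkt. The summed signal of 12 fast skeletal muscle markers was 10.76 to 11.14 (log2) in wild-type, highest on array 2, and 10.46 to 10.55 in caAkt. Mybpc2 was the brightest of the 12. In wild-type, Tnnc2 (6.27, 6.58 and 6.29), Atp2a1 (7.54, 7.62 and 7.46) and Myh2 (6.80, 6.86 and 6.84) were also highest on array 2. Tnni2 was so by a small margin (7.348, 7.354 and 7.257). The other markers were highest on array 1 or 3, for example Mylpf with 6.84, 6.74 and 6.67. Of the 12 markers 3 fell and 0 rose, beside 12.4% and 16.1% of all genes. The defining genes were dim: Myh4 had means of 4.13 and 4.003, Tnnt3 of 5.03 and 4.87, and Tnni2 of 7.32 and 7.16 in wild-type and caAkt. Myh7, the slow myosin chain, which is also raised in hypertrophy, was 12.18, 13.12 and 12.56 in wild-type and 13.36, 14.28 and 14.23 in caAkt. Their part in the Acta1 result was not tested.

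Tnni3, the troponin I of adult heart, fell. Its signal was 14.96, 14.96 and 14.89 on the wild-type arrays and 14.58, 14.61 and 14.58 on the caAkt arrays. All caAkt arrays were below all wild-type arrays. The log2 fold change was -0.35 ± 0.07 (95% interval -0.50 to -0.20; limma adjusted p = 0.00603), or 1.27-fold lower. It was called under each of 15 alternatives, with values of -0.37 to -0.33.

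Tnni1, the slow skeletal form that fetal heart uses, had signals of 7.24, 6.89 and 7.22 in wild-type and 6.96, 6.66 and 6.70 in caAkt. The groups overlapped, because caAkt array 1 was above wild-type array 2. The log2 fold change of -0.34 ± 0.12 (95% interval -0.61 to -0.08) was not called (adjusted p = 0.0747). Leaving out wild-type replicate 2 gave -0.46, which was called (adjusted p = 0.0302). Tnni1 was read near the arrays' medians, with means of 7.12 and 6.77, at or above 52.6% of probe sets, and Tnni3 at or above 99.9%. The changes of Tnni1 and Tnni3 had like values, and the difference between them was 0.01 (exact permutation p = 1 over 6 arrays, two-sided; adjusted over 4 isoform pairs, 1). The smallest p that 3 against 3 arrays can give is 0.1.

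The label of ventricular tissue was checked with marker genes. Ventricular cardiomyocyte markers were near the top of the scale, for example Myl2 with means of 15.38 and 15.25 and Myh6 with 15.22 and 15.02. Of 10 such genes 4 fell (Myl3, Ryr2, Pln and Myoz2) and 0 rose, with a median log2 fold change of -0.17. Over all genes 12.4% fell and 16.1% rose. Without single arrays 2 to 4 were called, the lower count without wild-type replicate 1 or 2 and without caAkt replicate 2 or 3. In bulk tissue, fewer cells of a type and less RNA per cell cannot be told apart. The atrial genes Myl7 and Sln were present and varied widely between arrays. Myl7 was 11.73, 8.79 and 10.31 in wild-type and 9.92, 7.16 and 9.67 in caAkt, and Sln was 10.50, 7.24 and 8.46, and 8.70, 6.32 and 8.54. For both genes array 1 was the highest and array 2 the lowest of each genotype, as for Tnni1. In wild-type, Myl4 (11.38, 8.58 and 10.41) and Stard10 (9.90, 9.45 and 9.86) had the same order. In caAkt, array 2 was again the lowest for Myl4 (11.50, 10.08 and 11.59) but not for Stard10 (9.81, 9.79 and 9.61). Nppa, Bmp10 and Myl1 had other orders in wild-type, with Nppa at 12.80, 12.94 and 12.47 and Bmp10 at 6.49, 6.75 and 6.70.

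The summed signal of the 7 atrial markers was 13.71 to 14.34 (log2) in wild-type and 15.89 to 16.09 in caAkt. Of these markers 2 rose (16.1% of all genes did), Nppa by 2.42 ± 0.12 and Myl1 by 2.51 ± 0.12 on the log2 scale. Nppa is also a hypertrophy gene and Myl1 is a light chain of fast skeletal muscle, so neither is specific to atrium. The part of atrial tissue in the Tnni1 result was not tested.

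Tnnt1, the slow skeletal troponin T, showed the largest fall among the called members. Its signal was 8.88, 9.07 and 9.10 in wild-type and 8.09, 8.50 and 8.33 in caAkt. The groups did not overlap. The log2 fold change was -0.71 ± 0.11 (95% interval -0.96 to -0.45; limma adjusted p = 0.00228), or 1.63-fold lower, and it was called under each of 14 alternatives, with values of -0.80 to -0.60.

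Tnnt2, the troponin T of adult heart, had 3 probe sets that did not give like values. The brightest, 1424967_x_at, was 15.12, 15.13 and 14.99 in wild-type and 15.16, 15.13 and 15.13 in caAkt, with a log2 fold change of 0.06 ± 0.07 (95% interval -0.11 to 0.22; adjusted p = 0.637). The second, 1418726_a_at, had 0.06 ± 0.08 (95% interval -0.13 to 0.25; adjusted p = 0.656). Without wild-type replicate 3, the lowest wild-type array for both, the changes were 0.010 for the brightest and 0.0012 for the second. The third, 1440424_at, was dimmer, with 10.01, 9.47 and 10.46 in wild-type and 9.57, 9.23 and 9.39 in caAkt. Its log2 fold change of -0.58 ± 0.21 was not called (adjusted p = 0.0934), and leaving out wild-type replicate 2 gave -0.84, which was called (adjusted p = 0.0106), and leaving out wild-type replicate 3 gave -0.34 (adjusted p = 0.196). Where in the transcript these probe sets bind was not analysed here. Against the brightest Tnnt2 probe set, Tnnt1 changed by -0.76 more, with the groups apart (exact permutation p = 0.1, the smallest possible; adjusted over 4 pairs, 0.4).

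Tnnt1 and Tnni3, the genes called lower with 1 probe set per gene, are next to each other on chromosome 7 in the RefSeq order of protein-coding genes (GRCm38.p6). Of the other genes within 4 places of Tnni3, 5 were measured (Rdh13, Eps8l1, Ppp1r12c, Syt5 and Tmem86b). None of these 5 was called, beside 28.5% of all genes, with log2 fold changes of -0.25 to 0.14. The other troponin pair, Tnni1 and Tnnt2, lies on chromosome 1 with Lad1 between the members. Around it, Phlda3 (0.73 ± 0.07), Nav1 (0.57 ± 0.08) and Ipo9 (0.33 ± 0.07) rose and Lad1 fell by 0.90 ± 0.16 on the log2 scale, while Csrp1 (0.08) and Pkp1 (-0.01) were not called. The promoter windows of the neighbouring troponin genes that fell are chr7:4522479-4522778 for Tnni3 and chr7:4515926-4516225 for Tnnt1, both on the minus strand. They are shown beside the actin windows because, in these letters, neither a CArG box nor CATTCC was found, which says nothing about the factors. Both motifs were also absent for Tnni1, Tpm2 and Lmod2, which were not called, so their absence is not particular to the genes that fell.

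Tnni3: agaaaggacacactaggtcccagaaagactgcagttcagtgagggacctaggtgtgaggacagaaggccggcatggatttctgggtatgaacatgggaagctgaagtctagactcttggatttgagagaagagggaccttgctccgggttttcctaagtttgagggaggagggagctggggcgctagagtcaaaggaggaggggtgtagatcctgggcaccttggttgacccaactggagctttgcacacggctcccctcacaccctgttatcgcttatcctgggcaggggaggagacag

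Tnnt1: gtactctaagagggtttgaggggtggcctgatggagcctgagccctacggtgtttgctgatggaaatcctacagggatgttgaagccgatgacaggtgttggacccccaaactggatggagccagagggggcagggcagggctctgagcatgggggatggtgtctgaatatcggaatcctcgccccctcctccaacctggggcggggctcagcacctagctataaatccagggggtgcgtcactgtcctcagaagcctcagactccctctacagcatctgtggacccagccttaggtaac

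Tnnc1, the calcium-binding troponin of heart and slow muscle, was 14.81, 14.84 and 14.65 in wild-type and 14.69, 14.75 and 14.71 in caAkt. The groups overlapped. The log2 fold change was -0.05 ± 0.08 (95% interval -0.22 to 0.12; adjusted p = 0.696). The 3 troponin genes of the adult heart complex thus gave a called fall for Tnni3 and values that were not called for the bright probe sets of Tnnt2 and for Tnnc1. Whether their changes differ from each other was not tested.

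**Figure D3:**
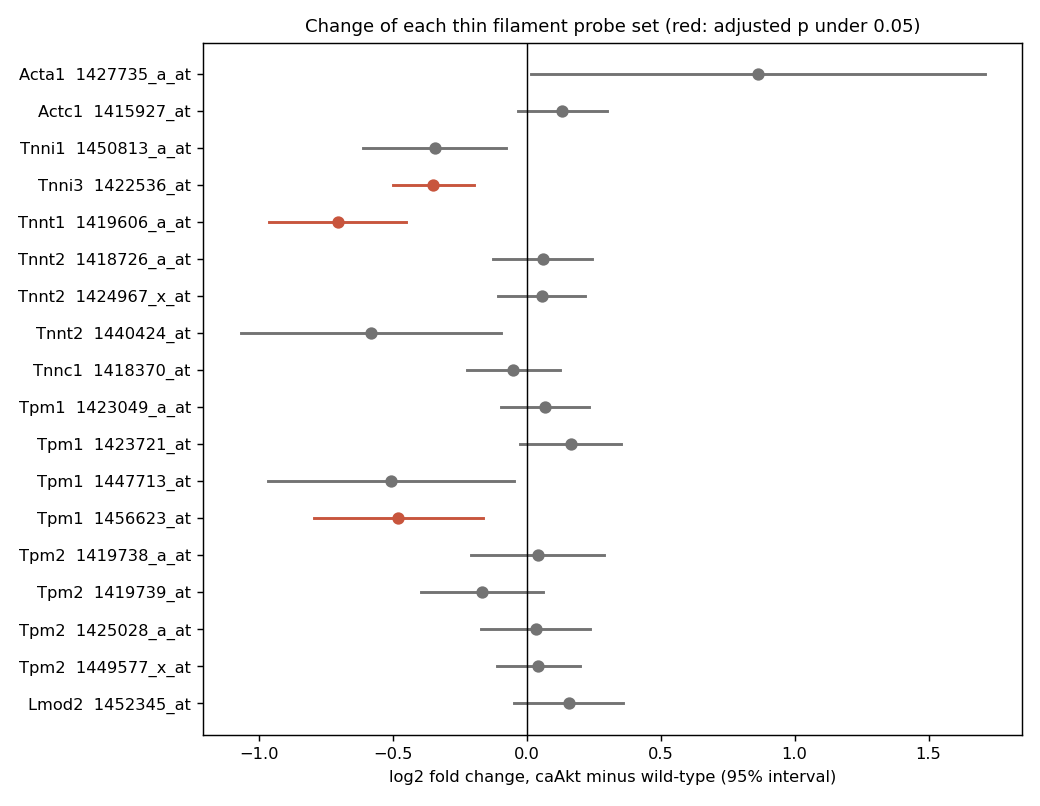
Log2 fold change, caAkt minus wild-type (x axis), of the 18 thin filament probe sets, with 95% intervals from limma's moderated standard error and probe sets called at an adjusted p under 0.05 in red. Those of Tnnt1 (-0.71), Tnni3 (-0.35) and 1 probe set of Tpm1 (-0.48) are red, and the interval of Acta1 is the widest.

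Tpm1, the α-tropomyosin that predominates in the heart, had 4 probe sets. The brightest, 1423049_a_at, was 15.21, 15.23 and 15.08 in wild-type and 15.25, 15.24 and 15.23 in caAkt, a log2 fold change of 0.07 ± 0.07 (95% interval -0.09 to 0.23; adjusted p = 0.554). Probe set 1423721_at was 9.16, 9.15 and 9.14 in wild-type and 9.18, 9.45 and 9.32 in caAkt. Its groups did not overlap, but the log2 fold change of 0.16 ± 0.08 was not called (adjusted p = 0.213), and it was 0.10 to 0.23 without single arrays. The wild-type SD of 0.0092 was at or above that of only 1.93% of probe sets, and the caAkt SD was 0.13.

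The other 2 Tpm1 probe sets had values below 0. Probe set 1456623_at was 8.91, 8.72 and 9.22 in wild-type and 8.61, 8.55 and 8.26 in caAkt, with the groups apart. Its fall of 0.48 ± 0.14 on the log2 scale was called (adjusted p = 0.0405). The call held without wild-type replicate 2 and was lost when any other array was left out (adjusted p 0.0672 to 0.142) and with array weights (0.0613). Probe set 1447713_at was 11.82, 11.67 and 11.22 in wild-type and 11.30, 10.62 and 11.26 in caAkt. Its groups overlapped, and its log2 fold change of -0.51 ± 0.20 was not called (adjusted p = 0.120), except without wild-type replicate 3 (-0.68, adjusted p = 0.0439). Without caAkt replicate 2 it was -0.29 (adjusted p = 0.330). Tpm1 is spliced into several forms, and which of them each probe set reads was not analysed here.

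Tpm2, the β-tropomyosin of skeletal and smooth muscle, had 4 probe sets, and 0 were called. The brightest, 1419738_a_at, was 10.59, 10.65 and 10.47 in wild-type and 10.42, 10.83 and 10.58 in caAkt, a log2 fold change of 0.04 ± 0.11 (95% interval -0.21 to 0.29; adjusted p = 0.835). The others gave 0.03 ± 0.09 (1425028_a_at), -0.17 ± 0.10 (1419739_at) and 0.04 ± 0.07 (1449577_x_at). The last stood at 4.91 in wild-type and 4.96 in caAkt, at or above only 19.4% of probe sets. All Tpm2 groups overlapped. Against the brightest Tpm1 probe set the change differed by -0.03 (exact permutation p = 0.7; adjusted over 4 pairs, 0.933). With the second brightest probe sets, which for Tpm1 is 1447713_at, this difference was 0.54.

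For the actin pair, the change of Acta1 exceeded that of Actc1 by 0.73 (exact permutation p = 0.3; adjusted over 4 pairs, 0.6), with values of 0.47 (without wild-type replicate 1) to 1.18 (without wild-type replicate 2) when single arrays were left out. Across the 4 isoform pairs, the skeletal or fetal form had the higher change for actin, the lower for troponin T, and differences of 0.01 and -0.03 for troponin I and tropomyosin. None of the 4 could reach an adjusted p under 0.05 in this design.

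Lmod2, the leiomodin of heart muscle, was 13.17, 13.29 and 13.02 in wild-type and 13.27, 13.27 and 13.42 in caAkt. The groups overlapped, and the log2 fold change of 0.16 ± 0.09 (95% interval -0.05 to 0.36) was not called (adjusted p = 0.269). It dropped to 0.086 if wild-type array 3 was left out. Among related genes of the filament ends, Lmod3 and Tmod4 fell. Lmod3, the leiomodin prominent in skeletal muscle, was 11.68, 11.71 and 11.63 in wild-type and 11.005, 10.81 and 10.67 in caAkt. It fell by 0.85 ± 0.09 on the log2 scale (limma over genes, adjusted p = 0.000147). Tmod4, the tropomodulin of skeletal muscle, which caps the pointed end, was 9.09, 8.68 and 8.86 in wild-type and 6.58, 6.93 and 6.22 in caAkt. It fell by 2.30 ± 0.17 (adjusted p = 1.64e-05). In both genes all caAkt arrays lay below all wild-type arrays. For Tmod1, the tropomodulin of heart, the value was -0.06 ± 0.10 and was not called (adjusted p = 0.713).

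Of 12 genes of filament ends and the nebulin family, 3 fell and 2 rose, with a median log2 fold change of -0.06. Over all genes 12.4% fell and 16.1% rose. Capza1, a subunit of the capping protein at the barbed end, rose by 0.69 ± 0.09 (adjusted p = 0.000439), and Capzb, its partner, by 0.24 ± 0.07 (adjusted p = 0.0279). The third gene that fell, Neb, which encodes the actin-binding ruler nebulin of skeletal muscle, was named after its value was seen. It was dim, with means of 5.43 and 4.81, and its fall of 0.62 ± 0.20 (adjusted p = 0.0482) was not called in the fit over all probe sets (adjusted p = 0.0671). Its call was lost in 7 of 10 alternatives: without wild-type replicate 1 or any 1 caAkt array, with every gene's probe sets averaged, with quantile normalization repeated and with median centring (adjusted p up to 0.168). Its log2 fold change over the 10 was -0.75 to -0.38. The call of Capzb was lost in 5 of the 10, without wild-type replicate 1 or 2, without caAkt replicate 1 or 2 and with quantile normalization repeated (adjusted p up to 0.0986). Without wild-type replicate 1, caAkt replicate 1 or caAkt replicate 2, 3 genes of this list were called instead of 5. Tmod4, Lmod3 and Capza1 were called in all 10 alternatives.

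Among other actins and tropomyosins, 4 of 6 genes rose and 0 fell, with a median of 0.35. Over all genes 16.1% rose and 12.4% fell. The cytoplasmic actins Actb and Actg1 rose by 0.64 ± 0.14 and 0.34 ± 0.09, and the tropomyosins Tpm3 and Tpm4 by 0.50 ± 0.09 and 0.36 ± 0.11 on the log2 scale. All 5 probe sets of Tpm3 were called higher (0.30 to 0.60), and which of its forms they read was not analysed here. A dimmer probe set of Actb gave -0.55 and was not called, and the mean of both Actb probe sets was 0.05. Acta2, the smooth muscle actin, had 0.03 ± 0.21 (adjusted p = 0.939). Without caAkt replicate 2 or caAkt replicate 3, 2 of the 6 rose, with Actg1 among those lost (adjusted p up to 0.0671). The call of Tpm4 was lost without any array except wild-type replicate 1 (adjusted p up to 0.117).

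**Figure D4:**
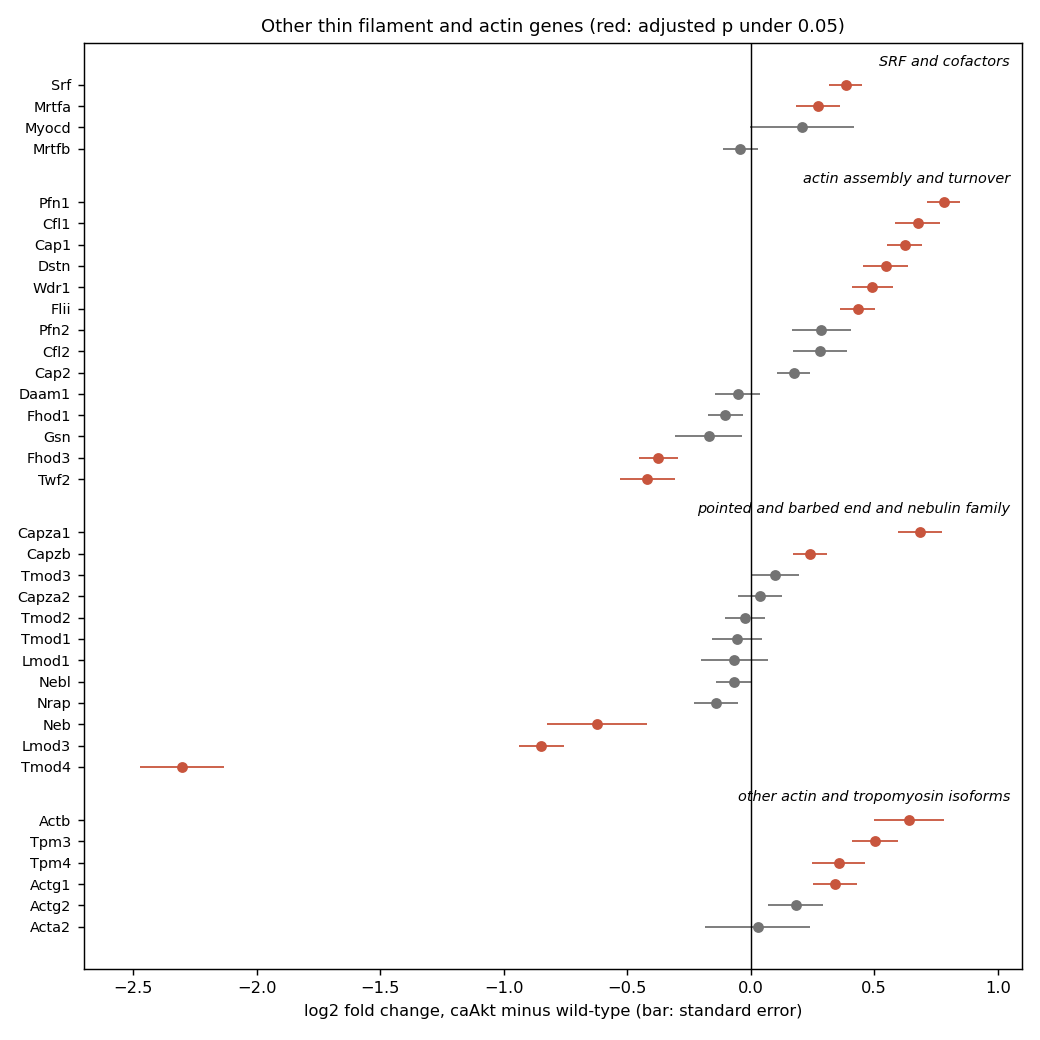
Log2 fold change, caAkt minus wild-type (x axis), of other actin, filament end, actin assembly and serum response factor genes, 1 probe set per gene, with bars for the standard error and genes called at an adjusted p under 0.05 in red. Tmod4 (-2.30) and Lmod3 (-0.85) lie far to the left, while 6 genes of actin assembly lie to the right.

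Of 14 measured genes of actin assembly and turnover, 6 rose and 2 fell, with a median of 0.28, beside 16.1% and 12.4% of all genes. Pfn1 (profilin, which delivers actin monomers) rose by 0.78 ± 0.07, Cfl1 (cofilin, which severs filaments) by 0.68 ± 0.09, Cap1 by 0.62 ± 0.07 and Flii by 0.43 ± 0.07. The muscle forms Cfl2 (0.28 ± 0.11, adjusted p = 0.0909) and Cap2 (0.17 ± 0.07, adjusted p = 0.0844) were not called. The genes that fell, named after their values were seen, were Fhod3, a formin of heart muscle (-0.37 ± 0.08), and Twf2 (-0.42 ± 0.11). The call of Twf2 was lost in fits that left out wild-type array 1 or 2, or caAkt array 1 or 3 (adjusted p up to 0.0790).

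Of 4 genes for serum response factor and its cofactors, 2 rose and 0 fell, with a median of 0.24, beside 16.1% and 12.4% of all genes. Srf was 10.03, 10.12 and 10.13 in wild-type and 10.52, 10.45 and 10.47 in caAkt, a rise of 0.39 ± 0.07 (adjusted p = 0.00231). The groups did not overlap. Mrtfa, the cofactor that senses free actin, rose by 0.27 ± 0.09 (adjusted p = 0.0474), a call lost in fits that left out wild-type array 1 or 2, or caAkt array 1 or 2, with quantile normalization repeated, and in the fit over all probe sets (adjusted p = 0.0686). Mrtfb (-0.04 ± 0.07) and Myocd (0.21 ± 0.21) were not called.

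Cell type markers differed beside these lists. Of 8 macrophage markers 8 rose (median 1.31), and of 8 fibroblast markers 7 rose (median 1.19), beside 16.1% of all genes. Their summed signals were 12.95 to 13.23 and 14.82 to 15.15 (log2) in wild-type, and 14.46 to 14.73 and 16.30 to 16.45 in caAkt. Of 9 smooth muscle markers 2 rose and 1 fell (median 0.03), beside 16.1% and 12.4% of all genes. Without wild-type replicate 3 or caAkt replicate 3 only 1 was called. Myh11 had -0.16 ± 0.12 (adjusted p = 0.371). Actb, Actg1, Tpm4, Pfn1, Cfl1 and Cap1 are widely expressed outside muscle cells, and the part of these cell types in their rises was not tested.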

How the data were processed

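The authors deposited log2 values made by RMA with the affy package, per the submitters' processing notes; versions are not given in the sources used here. RMA corrects background, quantile-normalizes the arrays and summarises each probe set, which removes any shift common to most genes. Gene symbols of probe sets come from the platform's 2016 annotation. The table held 45101 probe sets; 64 controls were left out of the tests.

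Every probe set was fitted with limma 3.58.1 in R 4.3.3 (lmFit, eBayes, genotype as the term, two-sided, 4 residual degrees of freedom). P-values were adjusted by Benjamini-Hochberg over 45037 probe sets. Gene lists were read from the same fit with the brightest probe set of each of 18193 genes, which gives their adjusted p. Differences between isoforms were tested by exact permutation. Errors are moderated standard errors for changes and SDs for levels, and the number of arrays limits the precision. Of these steps, only the limma fit was tested on simulated data.

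All probe sets of the members are described. Of other lists, up to 4 called genes with the smallest p are named, with a few defining markers. A rule to name genes most like a member applied to members called with at least 2-fold change, and 0 qualified. Members and lists were chosen with earlier results of these data known. Replicate numbers were not taken as pairs. Promoter sequences come from RefSeq tables; protein sequences were not used here.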

Additional observations from a re-analysis of the deposited data

How the results depend on the processing

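The alternatives were other eBayes settings, 1 probe set per gene, a filter on dim probe sets, plain probe set names, median centring, renewed quantile normalization, weights for arrays, a replicate block, a stricter threshold (0.01), and the omission of single arrays. Of 252 values of single member probe sets under these, 232 kept their direction and their side of the threshold, 8 lost a call (all of Tpm1 1456623_at), 6 gained one and 6 changed sign. The sign changes were of Tpm2 probe sets that were never called. With renewed quantile normalization 1419738_a_at was -0.022 and 1425028_a_at was -0.045. Without single arrays they ranged from -0.071 to 0.13 and from -0.042 to 0.099, below 0 without wild-type replicate 3 or caAkt replicate 2.

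Without single arrays, 2 to 5 member probe sets were called lower and 0 to 1 higher; the highest counts came without wild-type replicate 2. With the replicate block, 4 were called lower and 0 higher: Tnni1 (adjusted p = 0.0315) and Tnnt2 1440424_at (adjusted p = 0.0340) gained a call and Tpm1 1456623_at lost its call (adjusted p = 0.0652). With 1 probe set per gene, the block gave calls to Acta1 (adjusted p = 0.0367), Tnni1 (adjusted p = 0.0183), Pfn2, Myl7 and Myl4 among the listed genes and took those of Mrtfa (adjusted p = 0.0602) and Tpm4 (adjusted p = 0.0538). The deviations of same-numbered arrays from their group means correlated at 0.24, -0.01 and -0.12 for replicates 1, 2 and 3, and 2 of 6 arrays correlated best with their own number. Not every pair exceeded 0.1, so replicate numbers were not taken as pairs. With 3 arrays per genotype, these correlations cannot tell whether same-numbered arrays shared a batch. The difference between the changes of Tpm2 and Tpm1 was 0.54 with the second brightest probe sets.

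Of the lists, the skeletal or fetal isoforms had 1 called gene, but 2 with probe sets averaged per gene, 3 with the replicate block and 1 to 3 without single arrays. The other actins and tropomyosins had 2 to 4 without single arrays. The filament end list had 5, but 3 with renewed quantile normalization and 3 to 5 without single arrays. The serum response factor list had 2, but 1 with renewed quantile normalization, 1 with the replicate block and 1 to 2 without single arrays. The smooth muscle markers had 1 to 4 and the ventricular markers 2 to 4 without single arrays. The atrial markers had 4 with the replicate block instead of 2. The cause of these differences was not tested. Signal near the top of the scale may limit what can be read for the brightest members, which was not tested.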

Other observations

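The high Acta1 signal of wild-type array 2 was unusual within that array. It lay 1.42 (log2) above both other wild-type arrays, and 2 of 45037 probe sets had a gap at least that large. The other was of S100a8, a calcium-binding protein of neutrophils, with 5.90, 7.82 and 5.95 in wild-type and 5.69, 6.57 and 6.19 in caAkt. Its partner S100a9 had a gap of 1.15, the detoxifying enzyme Cyp1a1 1.20 and Cpxm2 1.06. Vgll2, a cofactor of TEAD factors in muscle, had a gap of 0.74 and a log2 fold change of 3.22 between genotypes (limma adjusted p = 9.16e-06). These genes were picked after their values were seen. Array 2 was not the wild-type array with most such gaps. On wild-type array 3, 64 probe sets lay at least 1 (log2) above both other wild-type arrays, beside 7 on array 2 and 6 on array 1. Array 3 also had the lowest mean correlation with the other wild-type arrays (0.9951, beside 0.9963 for array 2 and 0.9960 for array 1).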
